A study of Mus musculus with 2 samples.

Results

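The Sox transcription factors of mouse dorsal striatum were compared between 1 library from mice whose cocaine intake escalated and 1 library from mice whose intake did not. The genes described are Sox1, Sox2, Sox4, Sox5, Sox6, Sox8, Sox9, Sox10, Sox11 and Sox21, which are 10 of the 32531 gene symbols listed in the deposited counts. They were chosen by name, after a look at these same libraries in which the family appeared lower in the escalating library. The difference between the libraries is therefore given as a description and not as a finding. At 1.5-fold or more, 7 of the 10 genes were lower, as were 17.1% of all 12213 genes with enough reads, and nothing is read from that count because the genes were chosen on it. Sox6, Sox8 and Sox10 were not lower by that measure, so the statement does not hold for the whole family.

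All mice carried the Drd1-TRAP transgene (line CP73), a bacterial artificial chromosome that puts an EGFP-tagged ribosomal protein Rpl10a into cells in which the dopamine receptor Drd1 promoter is active. The line came from FVB/N-Swiss Webster stock bred to C57BL/6 over 9 generations or more. Both groups took cocaine by intravenous self-administration in long-access sessions, and no group without cocaine is analysed here. Total RNA of the dissected tissue was sequenced (the input), so every cell type of the dissection contributed and not the tagged cells alone. The sources used here state neither age nor sex, nor how many mice were pooled. With 1 library per group no difference has a replicate check, no p-value is given, and a difference is one between these libraries, not between the conditions.

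Reads assigned to genes numbered 9548358 for escalating and 9376097 for nonescalating mice. Reads that the counting gave to no annotated feature were 28.6% of all listed reads in the escalating against 18.1% in the nonescalating library. Whether these lie within or between genes is not given. Reads ambiguous between genes were 8.06% and 18.9%. Counts were scaled to CPM (counts relative to a TMM-adjusted library size, which centres most genes). The 16 striatal projection neuron markers examined were measured in both libraries, with summed levels of 12869.5 CPM in the escalating against 11809.4 CPM in the nonescalating library. A gene was called lower or higher when its ratio of escalating over nonescalating reached 1.5-fold and the exact (Clopper-Pearson) 95% counting interval of the ratio excluded 1. Such intervals cover counting error only, because each group has 1 library. Reads are also not independent molecules, so the intervals may be too narrow even for that error.

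Sox proteins bind the minor groove of DNA through an HMG box, a domain of the same kind as that of the sex-determining factor Sry, and bend the DNA. They usually act together with partner factors of other families, such as POU proteins. The family is divided into subgroups by the sequence of the box: SoxB1 factors maintain neural progenitors and are also made by astrocytes, SoxB2 factors act as their repressing counterparts, and SoxC factors act in young neurons. SoxD factors lack a transactivation domain of their own and modulate other Sox proteins, and SoxE factors set glial fates, Sox9 in astrocytes and Sox10 with Sox8 in oligodendrocytes.

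The kinship of the 10 genes is visible in the letters that encode the core of the HMG box. The stretches below are the first 60 coding bases of the conserved core, 5′ to 3′ on the coding strand, read from GENCODE M21 transcripts (mm10). Capitals mark each base that differs from Sox2.

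Sox2: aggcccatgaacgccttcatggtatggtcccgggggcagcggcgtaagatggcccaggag
Sox1: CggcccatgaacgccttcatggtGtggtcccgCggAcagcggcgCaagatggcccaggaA
Sox21: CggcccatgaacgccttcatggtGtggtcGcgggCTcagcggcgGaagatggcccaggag
Sox4: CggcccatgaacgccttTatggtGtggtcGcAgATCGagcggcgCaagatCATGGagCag
Sox11: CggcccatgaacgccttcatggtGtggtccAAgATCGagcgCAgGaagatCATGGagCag
Sox5: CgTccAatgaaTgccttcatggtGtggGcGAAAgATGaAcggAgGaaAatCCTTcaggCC
Sox6: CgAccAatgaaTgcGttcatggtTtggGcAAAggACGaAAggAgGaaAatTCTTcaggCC
Sox8: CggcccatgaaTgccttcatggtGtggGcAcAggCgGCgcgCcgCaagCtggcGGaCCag
Sox9: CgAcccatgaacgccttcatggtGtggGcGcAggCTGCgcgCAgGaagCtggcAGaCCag
Sox10: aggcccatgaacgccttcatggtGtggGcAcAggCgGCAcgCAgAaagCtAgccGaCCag

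Sox1 and Sox21 each differed from Sox2 at 6 of these 60 bases, and Sox5 and Sox6 at 23 and 24. Over the 79 residues of the box, pairs within a subgroup shared 93.7% to 98.7% of residues (6 pairs), with Sox8 and Sox9 the closest. Pairs from different subgroups shared 46.8% to 91.1% (39 pairs), the highest being Sox2 with Sox21. The longest run of identical bases between any transcripts of these genes was 48, between Sox4 and Sox11, followed by 44 between Sox9 and Sox10 and 38 between Sox2 and each of Sox1 and Sox21. A read wholly inside such a run would align to both genes. Reads without a unique alignment are listed apart from the gene counts, at 9.53% of all listed reads (escalating) and 7.78% (nonescalating). The read length is not stated in the sources used.

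The 3 SoxB genes of the list, Sox1, Sox2 and Sox21, were called lower in the escalating library with TMM scaling. Sox1, a SoxB1 factor needed for the ventral striatal neurons of the embryo and also made by adult astrocytes, lies on chromosome 8 (12395295 to 12400126, plus strand, mm10) and has 1 exon. It had 299 counts in the escalating against 457 in the nonescalating library, or 27.6 CPM (exact 95% Poisson interval 24.6 to 30.9) and 55.2 CPM (50.3 to 60.5). The intervals did not overlap, and the ratio of escalating over nonescalating was 0.50 (0.431 to 0.580). Sox2, the SoxB1 factor of neural stem cells and astrocytes (chromosome 3, 34650405 to 34652461, 1 exon), had 76 and 102 counts, or 7.02 CPM (5.53 to 8.79) and 12.3 CPM (10.1 to 15.0), with a ratio of 0.570 (0.418 to 0.774). With counts scaled to total assigned reads its ratio was 0.732 and it was not called. Sox21, a SoxB2 factor that opposes SoxB1 activity (chromosome 14, 118233232 to 118237030, 1 exon), had 43 and 95 counts, or 3.97 CPM (2.88 to 5.35) and 11.5 CPM (9.29 to 14.0). Its ratio of 0.346 (0.236 to 0.501) was the smallest of the SoxB genes, though the intervals of Sox1 and Sox21 overlapped. The noncoding gene Sox2ot, which holds Sox2 within an intron on the same strand, had 354 and 445 counts and a ratio of 0.608 (0.528 to 0.701). Reads of Sox2ot per read of Sox2 were 4.66 in the escalating against 4.36 in the nonescalating library, a ratio of 1.07 (95% counting interval 0.769 to 1.48).

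The SoxC genes of the list were lower as well. Sox11, a factor of migrating and differentiating neurons (chromosome 12, 27334264 to 27342574, minus strand, 1 exon), had 247 and 468 counts, or 22.8 CPM (20.1 to 25.9) in the escalating against 56.6 CPM (51.6 to 61.9) in the nonescalating library. Its ratio was 0.404 (0.344 to 0.472). Sox4, which acts with Sox11 in young neurons (chromosome 13, 28948919 to 28953713, minus strand, 1 exon), was the gene with the fewest reads, at 23 and 64 counts. Its level was 2.13 CPM (1.35 to 3.19) and 7.74 CPM (5.96 to 9.88), with a ratio of 0.275 (0.163 to 0.449). Sox12, the remaining SoxC gene and not among the 10, had 168 and 109 counts and a ratio of 1.18 (0.921 to 1.51), an interval that includes 1 and lies above those of Sox4 and Sox11. In reads per read of Sox11, a measure free of the scaling between libraries, Sox12 stood at 0.680 in the escalating against 0.233 in the nonescalating library, a ratio of 2.92 (2.19 to 3.89).

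The SoxD genes diverged. Sox5, which restrains oligodendrocyte precursors from differentiating and shapes cortical neuron identity, spans chromosome 6 from 143828425 to 144781977 (minus strand) and had 94 counts in the escalating against 266 in the nonescalating library. Its level was 8.69 CPM (7.02 to 10.6) and 32.2 CPM (28.4 to 36.3), and its ratio was 0.270 (0.211 to 0.343), an interval that overlaps those of Sox4 and Sox21. Sox6, its close relative and also a factor of cortical and striatal interneurons (chromosome 7, 115470872 to 116038796, minus strand), had 370 and 350 counts, or 34.2 CPM (30.8 to 37.86) and 42.3 CPM (37.99 to 47.0). These intervals met at 37.86 and 37.99 CPM without overlap, and the ratio of 0.808 (0.697 to 0.938) did not reach 1.5-fold. With total-read scaling the sign of Sox6 flipped, to a ratio of 1.04. Within a library there were 3.94 reads of Sox6 per read of Sox5 in the escalating against 1.32 in the nonescalating library, a ratio of 2.99 (2.27 to 3.95) that does not depend on the scaling. Sox13, the third SoxD gene and not among the 10, had 71 and 64 counts and a ratio of 0.848 (0.596 to 1.21).

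Of the SoxE genes, Sox9 was called lower and Sox8 and Sox10 were not. Sox9, the astrocyte factor (chromosome 11, 112782224 to 112787760, plus strand), had 347 and 611 counts, or 32.1 CPM (28.8 to 35.6) in the escalating against 73.8 CPM (68.1 to 79.9) in the nonescalating library, with a ratio of 0.434 (0.380 to 0.496). Sox10, which switches on myelin genes (chromosome 15, 79154908 to 79165240, minus strand), had 242 and 209 counts, or 22.4 CPM (19.6 to 25.4) and 25.3 CPM (21.95 to 28.9). The intervals of Sox10 overlapped, its ratio of 0.885 (0.733 to 1.07) was not called, and with total-read scaling its sign flipped, to a ratio of 1.14. Sox8, a partner of Sox10 in oligodendrocytes (chromosome 17, 25565892 to 25570686, minus strand), had 913 and 552 counts, or 84.4 CPM (78.99 to 90.03) and 66.7 CPM (61.3 to 72.5). It was the only 1 of the 10 with a higher level in the escalating library, at a ratio of 1.26 (1.14 to 1.41), under 1.5-fold with TMM scaling and called higher, at 1.62, with total-read scaling. Reads of Sox8 per read of Sox9 were 2.63 in the escalating against 0.903 in the nonescalating library, a ratio of 2.91 (2.46 to 3.45). Sox8 shares 329 exonic bases with 2810468N07Rik on the opposite strand, a noncoding gene with 250 and 154 counts and a ratio of 1.24 (1.01 to 1.53). The strand setting of the counting is not stated in the sources used. Reads in the shared bases may therefore have been counted for a gene or set aside as ambiguous. Ambiguous reads were 8.06% of all listed reads in the escalating against 18.9% in the nonescalating library, and their part in the Sox8 ratio was not tested. A limit of another kind holds for Sox4, Sox5 and Sox21. They share 2616, 1330 and 713 exonic bases with the opposite-strand genes Gm26735, Sox5os1 and Gm4675, which the deposited counts do not list. If the counting ignored strand, reads of these unlisted genes in the shared bases may have been added to the Sox gene. Sox1 shares 86 exonic bases with the same-strand microRNA gene Gm25239, likewise not listed.

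**Figure D1:**
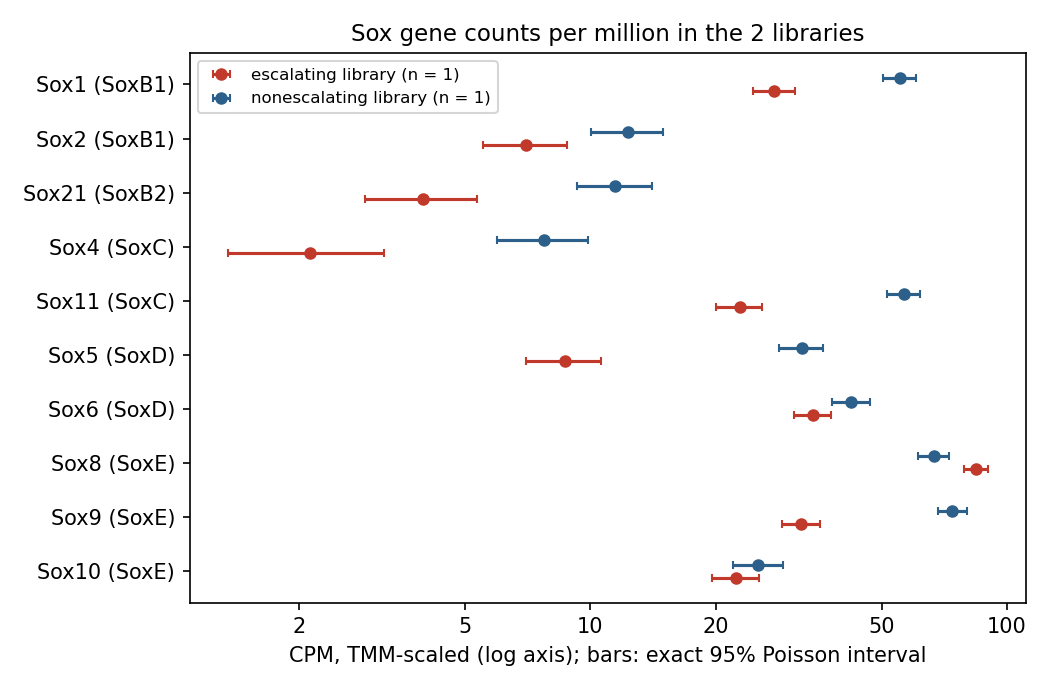
CPM (log axis, TMM-scaled) of the 10 Sox genes in the escalating (red) and nonescalating (blue) library, 1 library each, with exact 95% Poisson intervals as bars. The intervals of 9 genes do not overlap between the libraries and those of Sox10 do; Sox8 is the gene whose red point lies to the right.

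Set together, 7 of the 10 genes were called lower and 0 higher with TMM scaling, where 17.1% of 12213 measured genes were called lower and 9.36% higher. Measured genes are those with at least 50 counts over both libraries, and all 10 passed, Sox4 with the fewest. The median log2 ratio over the 10 genes was -1.10, beside 0.02 over all measured genes. With total-read scaling 6 were called lower and 1 higher, where 9.4% of measured genes were called lower and 31.5% higher. That scaling moved the median of all measured genes by 0.36 (log2), and the median of the 10 genes to -0.74. No count of called Sox genes bears on the family as such, because the genes were picked on this contrast. Summed over the 10 genes, the level was 245.3 CPM in the escalating against 383.6 CPM in the nonescalating library, 1.56-fold lower in the former (1.49 to 1.65). In rank, 2.86% of measured genes had a smaller ratio than Sox5, 6.72% a smaller ratio than Sox9, and 76.5% a smaller ratio than Sox8.

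**Figure D2:**
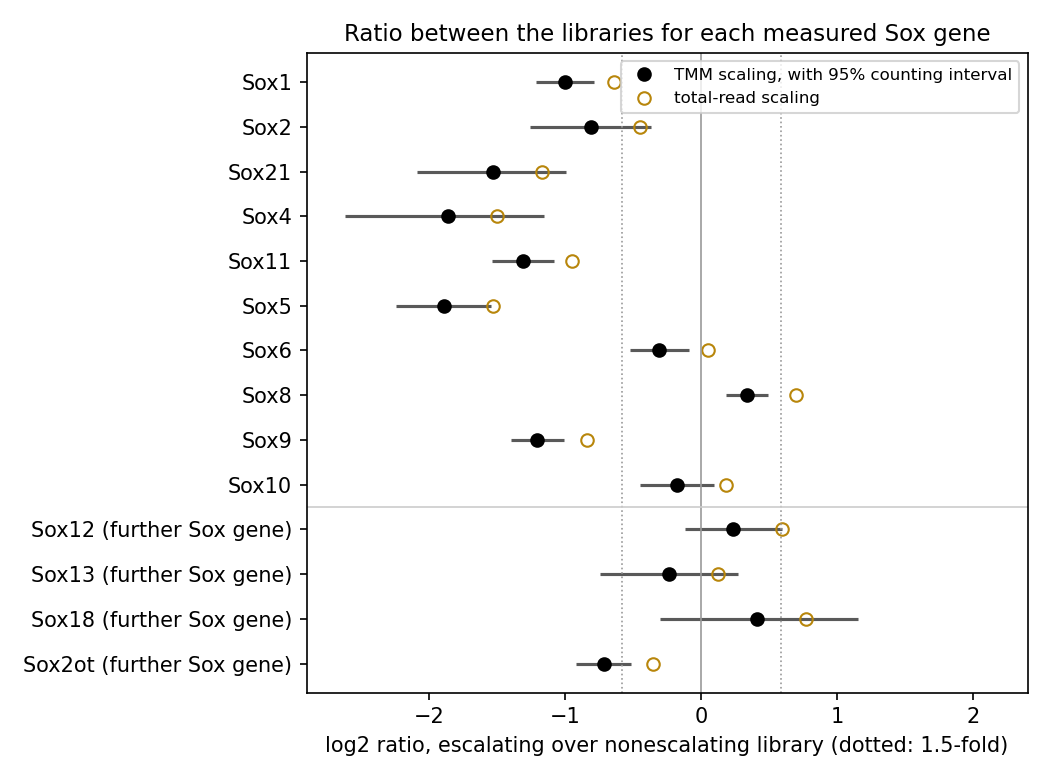
Log2 ratio of escalating over nonescalating for the 10 Sox genes and the 4 further measured genes with a Sox name; black points and bars give TMM scaling with the 95% counting interval, open points give total-read scaling, and dotted lines mark 1.5-fold. The black points run from Sox5, at a ratio of 0.270, to Sox18, at 1.33, and the open points of Sox6, Sox10 and Sox13 lie on the other side of 0 from the black ones.

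No Sox protein gene outside the 10 was called lower at the minimum of 50 counts. The files list 20 genes that encode Sox proteins (Sry included), of which 13 were measured: 7 were called lower, all among the 10 genes above, and 6 were not called. The 3 measured genes outside the 10 were Sox12 and Sox13, given above, and Sox18, a SoxF factor of blood vessels and lymphatics, with 47 and 27 counts and a ratio of 1.33 (0.812 to 2.22). With total-read scaling Sox12 and Sox18 were called higher, at ratios of 1.51 and 1.71. Sox7 and Sox17, the other SoxF genes, had 13 and 26 counts and 13 and 20 counts in the escalating against nonescalating library, too few for the minimum of 50. With a minimum of 10 counts Sox7, at a ratio of 0.382 (0.180 to 0.771), would be called lower, and Sox17, at 0.497 (0.227 to 1.05), would not. Sox3, Sox15 and Sox30 had at most 4 counts in a library, and Sox14 and Sry had 0 in both. Where 0 reads were counted, a one-sided 95% limit allows up to 3, or 0.277 CPM (escalating) and 0.363 CPM (nonescalating).

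The make-up of the Sox reads differed between the libraries, and this measure needs no scaling between the libraries. The shares are tied to each other, so a gene less reduced than the summed Sox reads gains share. The level of Sox8 had a ratio of 1.26, which was not called, beside 0.639 for the summed Sox genes. Sox8 made up 34.4% of the reads of the 10 genes on the escalating side (32.6 to 36.2, exact 95% binomial) and 17.4% on the nonescalating side (16.1 to 18.8). Sox9 went the other way, with 13.1% (11.8 to 14.4) and 19.3% (17.9 to 20.7). In the nonescalating library the intervals of Sox9 and Sox8 overlapped. Sox11 made up 9.31% (8.23 to 10.5) and 14.7% (13.5 to 16.0), and Sox5 3.54% (2.87 to 4.32) and 8.38% (7.44 to 9.40). The share of Sox2, at 2.86% (2.26 to 3.57) and 3.21% (2.63 to 3.89), was not distinguishable between the libraries at this depth.

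**Figure D3:**
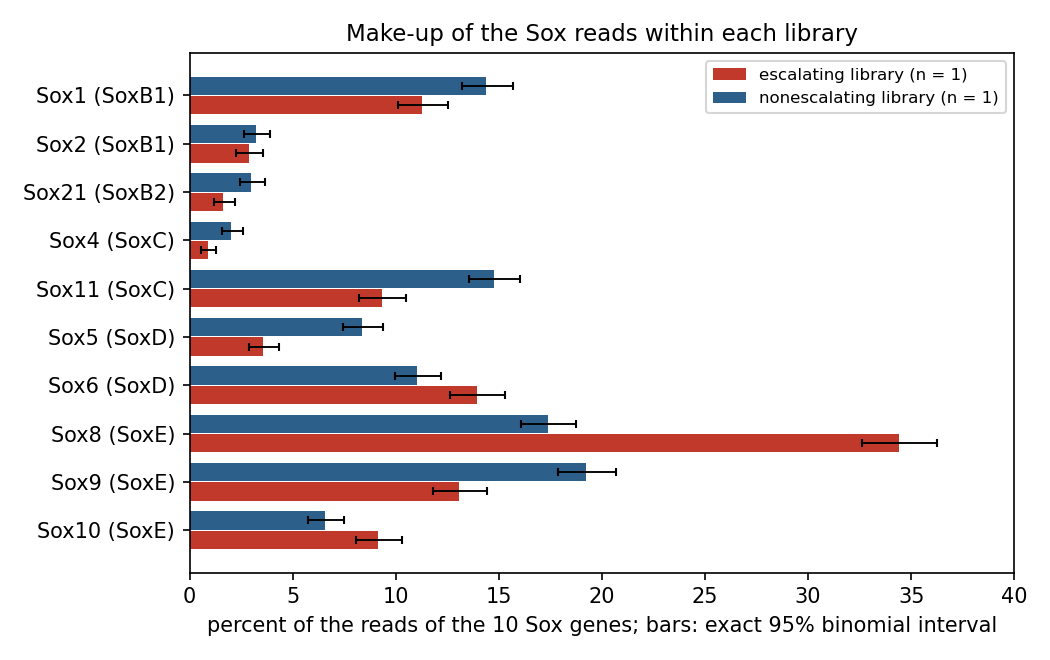
Percent of the summed reads of the 10 Sox genes that each gene held in the escalating (red) and nonescalating (blue) library, 1 library each, with exact 95% binomial intervals. The shares of Sox6, Sox8 and Sox10 are higher in the escalating library, with Sox8 at 34.4% beside 17.4%.

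Per length, Sox8 was the most abundant of the 10 in both libraries. Levels per kilobase of annotated exon (CPM per kb, over the union of GENCODE exons) placed Sox8 at 27.1 in the escalating against 21.4 in the nonescalating library. Sox9 followed in both, at 7.76 and 17.9 CPM per kb. In the escalating library Sox10, at 7.33 CPM per kb, did not differ from Sox9 beyond counting error, and Sox1, Sox2, Sox11 and Sox6 came next at 5.72, 3.41, 2.75 and 2.31. Of these, Sox2 and Sox11 had overlapping intervals, as did Sox11 and Sox6, and Sox21 followed at 1.05. In the nonescalating library Sox1, at 11.4 CPM per kb, stood above Sox10, at 8.28, and Sox11 and Sox2 followed at 6.81 and 5.99; the intervals of Sox10 and Sox11 overlapped, as did those of Sox11 and Sox2. Sox21 and Sox6 came next, at 3.02 and 2.85, with overlapping intervals. Sox5 and Sox4 came last, at 0.604 and 0.443 CPM per kb in the escalating against 2.24 and 1.61 in the nonescalating library, and their intervals overlapped in each. The exon unions of Sox5 and Sox6 cover 14376 and 14832 bases over many isoforms, more than any transcript holds, and the order turned when the longest transcript was used as the length, a choice made after seeing the data. Sox5 then stood at 1.20 and 4.44 CPM per kb, above Sox21, with overlapping intervals in the escalating library. Sox6 then stood at 3.94 and 4.88, above Sox2 in the escalating library with overlapping intervals. On that length Sox10, at 8.04 CPM per kb, and Sox9 also changed places in the escalating library, while Sox8 remained first and Sox4 last in both.

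The 5 genes with 1 exon, which are Sox1, Sox2, Sox4, Sox11 and Sox21, were all called lower, while among the 5 genes with several exons Sox5 and Sox9 were called lower. Over all measured coding genes, 24.8% of 226 genes with 1 exon block were called lower, beside 17.4% of 10815 with more. The GC content of the longest transcript ran from 44.8% in Sox5 to 61.8% in Sox10. When measured coding genes were binned by GC content into 5 groups of about equal size, the share called lower was between 16.7% and 18.4% in each, but the share called higher ran from 3.85% in the group of lowest GC to 13.1% in that of highest GC. By exon length the share called higher ran the other way, from 12.9% of the shortest to 4.12% of the longest genes. Of the genes not called lower, Sox10, Sox8 and Sox6 had a higher GC content than 98.5%, 74.6% and 31.9% of measured coding genes. For the genes called lower this share ran from 25.5% in Sox5 to 92.0% in Sox21, with Sox1 at 86.9%. The part of exon number, GC content and length in the Sox ratios was not tested.

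The family's own binding motif was looked for upstream of the genes. RefSeq promoters (GRCm38.p6) matched 8 of the 10 genes, with no entry used for Sox9 and Sox10. In the 250 bases before the start, ACAAAG or ACAATG was searched on both strands. A motif occurred in 3 of the 8 genes (Sox2, Sox5 and Sox6, the last with several alternative starts). Counted by promoter, 7 of the 13 promoters of these genes (53.8%) held a motif, beside 25.2% of all 32851 promoters of that length. The alternative starts of Sox6 are not independent of each other, so nothing is read from these shares. The windows show the motif in capitals for Sox2 at chr3:34649777-34649806 (plus strand) and for Sox5 at chr6:143947243-143947272 (minus strand). A match is a description of letters and not a bound site.

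Sox2: ggggggggggatACAAAGgttccccagcgg
Sox5: gactgaagagacACAATGgttgtgaatact

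Genes known as partners or targets of each subgroup were taken from lists drawn up by known function, with earlier results of these libraries in view. The lists overlap: 5 measured genes of the SoxE astrocyte list are also astrocyte markers, 6 of the SoxE oligodendrocyte list are mature oligodendrocyte markers, and 3 of the SoxC list are neuroblast markers. The counts of called genes in these lists stand beside 17.1% lower and 9.36% higher over all measured genes. Of 16 measured SoxB1 partners and targets, 12 were called lower and 0 higher, with a median log2 ratio of -0.95. Zeb2, a zinc finger factor of glia and interneurons, had 696 and 1296 counts and a ratio of 0.411 (0.374 to 0.451). Pou3f3, a POU factor of the kind that binds DNA beside Sox2, had 277 and 397 counts and a ratio of 0.533 (0.456 to 0.624), and Gli3, an effector of hedgehog signalling, had 375 and 428 counts and was not called (0.670, 0.582 to 0.771). With total-read scaling 8 of the 16 were lower and 2 higher.

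Of 7 measured SoxC targets and partners, 3 were called lower and 0 higher (median -0.50). Dcx, the microtubule protein of migrating neuroblasts, had 511 and 819 counts and a ratio of 0.477 (0.426 to 0.533). Ncam1, an adhesion molecule, had a ratio of 0.655 (0.623 to 0.688), and Fbxw7, a ubiquitin ligase subunit, 1.18 (1.08 to 1.29). Markers of subventricular zone neuroblasts and progenitors, the germinal layer that borders the striatum, were lower for 9 of 12 measured genes (median -1.47), with a summed level of 237.3 CPM in the escalating against 341.2 CPM in the nonescalating library. The neuronal tubulin gene Tubb3 and Stmn2, which mature neurons also express, had ratios of 1.22 (1.09 to 1.36) and 1.17 (1.03 to 1.32). Of the 16 markers 4 were below the minimum (Sp8, Igfbpl1, Pbk and Cdk1), and 0 were without a read in either library. The part of these cells in the lower Sox4 and Sox11 levels was not tested.

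Of 11 measured SoxD partners and interneuron genes, 2 were called lower and 1 higher, with a median of 0.05, shares near those over all measured genes. The striatal factor Bcl11b had a ratio of 1.11 (1.07 to 1.15), the interneuron peptide gene Sst 1.01 (0.920 to 1.12) and the ETS factor gene Etv1 0.878 (0.787 to 0.979). None of these 3 reached 1.5-fold. The genes called lower were the corepressor Ctbp2, at 0.450 (0.277 to 0.720), and the cortical factor Fezf2, at 0.561 (0.347 to 0.898). The gene called higher was Lhx6, which acts upstream of Sox6 in interneurons of the medial ganglionic eminence, with 447 and 227 counts and a ratio of 1.51 (1.28 to 1.77); these 3 are named after their values were seen.

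Of 16 measured SoxE partners and targets in astrocytes, 15 were called lower and 0 higher (median -1.87). Nfia, which Sox9 induces and with which it acts at the onset of gliogenesis, had 509 and 1377 counts and a ratio of 0.283 (0.255 to 0.313). Mmd2 and Apcdd1, joint targets of Sox9 and Nfia, had ratios of 0.223 (0.192 to 0.258) and 0.462 (0.281 to 0.748). The glutamate transporter genes Slc1a2 and Slc1a3 had ratios of 0.107 (0.105 to 0.109) and 0.230 (0.216 to 0.244). Sox9, at a log2 ratio of -1.20, lay above the medians of these targets and of the 17 astrocyte markers (-1.97), all 17 of which were called lower.

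Of 19 measured SoxE partners and targets in oligodendrocytes, 7 were called lower and 2 higher, with a median of -0.32. With total-read scaling 4 were lower and 2 higher, with a median of 0.04. The myelin gene Mbp, a direct target of Sox10, had 3623 and 12243 counts and a ratio of 0.226 (0.218 to 0.235). Myrf, the myelin regulatory factor that Sox10 induces, had 518 and 481 counts and a ratio of 0.823 (0.726 to 0.934), and the myelin adhesion gene Mag 413 and 374 counts and 0.844 (0.732 to 0.974). Cnp, a myelin enzyme, had a ratio of 0.818 (0.770 to 0.869), and none of these 3 reached 1.5-fold. The genes called higher were Zfp536 and Sufu, named after their values were seen, with ratios of 1.67 (1.32 to 2.11) and 1.58 (1.26 to 1.99). Olig1 and Olig2, the bHLH factors of the lineage and likewise named afterwards, had ratios of 0.898 (0.778 to 1.04) and 0.801 (0.635 to 1.01), close to that of Sox10.

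Markers of glia were mostly lower in the escalating library with TMM scaling, beside 17.1% of all measured genes. This held also for markers of the oligodendrocyte lineage, whose factors Sox8 and Sox10 were not called. The 17 measured astrocyte markers summed to 2443.6 CPM in the escalating against 16331.9 CPM in the nonescalating library, and 13 of 17 measured mature oligodendrocyte markers were lower, with sums of 1879.7 and 4573.1 CPM. Of 9 measured oligodendrocyte precursor markers 5 were lower and 1 higher (Neu4, a sialidase, at a ratio of 1.75), with sums of 281.5 and 799.0 CPM. Microglia markers were lower for 15 of 15 genes, with sums of 36.9 and 1652.7 CPM and 1 gene at 0 in the escalating library, and 10 of 12 endothelial markers were lower. With total-read scaling 8 of 17 mature oligodendrocyte and 6 of 12 endothelial markers were lower, beside 9.4% of all measured genes. Precursor markers were then lower for 3 of 9 genes and higher for 1. Astrocyte and microglia markers remained lower for 15 of 17 and 15 of 15 genes. In these bulk samples fewer cells of a type and less RNA per cell cannot be told apart, and the part of glial content in the Sox values was not tested. Ependymal markers, of which 2 of 12 were measured, had 1 gene higher (Foxj1, 68 and 30 counts).

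Sox reads were also set against marker reads of the same library, which needs no scaling between the libraries, and the result depended on a few abundant markers. Each comparison was therefore repeated without the markers that hold many of a list's reads, a choice made after seeing the data. Sox9 had 13.1 reads per 1000 astrocyte marker reads in the escalating against 4.52 in the nonescalating library, a ratio of 2.90 (95% counting interval 2.54 to 3.31), and without Slc1a2 the ratio was 1.31 (1.14 to 1.49). Without Slc1a2, Sox1 had a ratio of 1.504 (1.30 to 1.74) and Sox2 of 1.71 (1.27 to 2.31), while that of Sox21, at 1.04 (0.725 to 1.49), showed no difference detectable at this depth. With Slc1a2 these were 3.34, 3.81 and 2.31. On this basis Sox9, Sox1 and Sox2 were less reduced than the astrocyte markers summed. Single astrocyte markers had log2 ratios from -3.22 to -0.788 with TMM scaling. That range holds those of Sox9 (-1.20), Sox1 (-0.998) and Sox2 (-0.807).

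Sox10 had 11.9 reads per 1000 mature oligodendrocyte marker reads in the escalating against 5.52 in the nonescalating library, a ratio of 2.15 (1.79 to 2.59), and without Mbp the ratio was 1.77 (1.47 to 2.14). Sox8 had a ratio of 3.08 (2.76 to 3.42) to these markers, and of 2.53 (2.27 to 2.82) without Mbp. Against precursor markers the ratio of Sox6 was 2.29 (1.97 to 2.67), and 1.26 (1.07 to 1.48) without Ptprz1, a phosphatase that astrocytes also make. Sox5 lay on the other side, at 0.767 (0.604 to 0.974), and at 0.421 (0.330 to 0.538) without Ptprz1.

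Sox11 had a ratio of 0.580 (0.493 to 0.683) to the neuroblast and progenitor markers, but Tubb3 and Stmn2 hold many of those reads. Without these neuronal genes it had 227.7 reads per 1000 in the escalating against 249.9 in the nonescalating library, a ratio of 0.911 (0.768 to 1.08) whose interval includes 1. Sox4 had a ratio of 0.395 (0.245 to 0.638), and of 0.620 (0.383 to 1.005) without them.

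**Figure D4:**
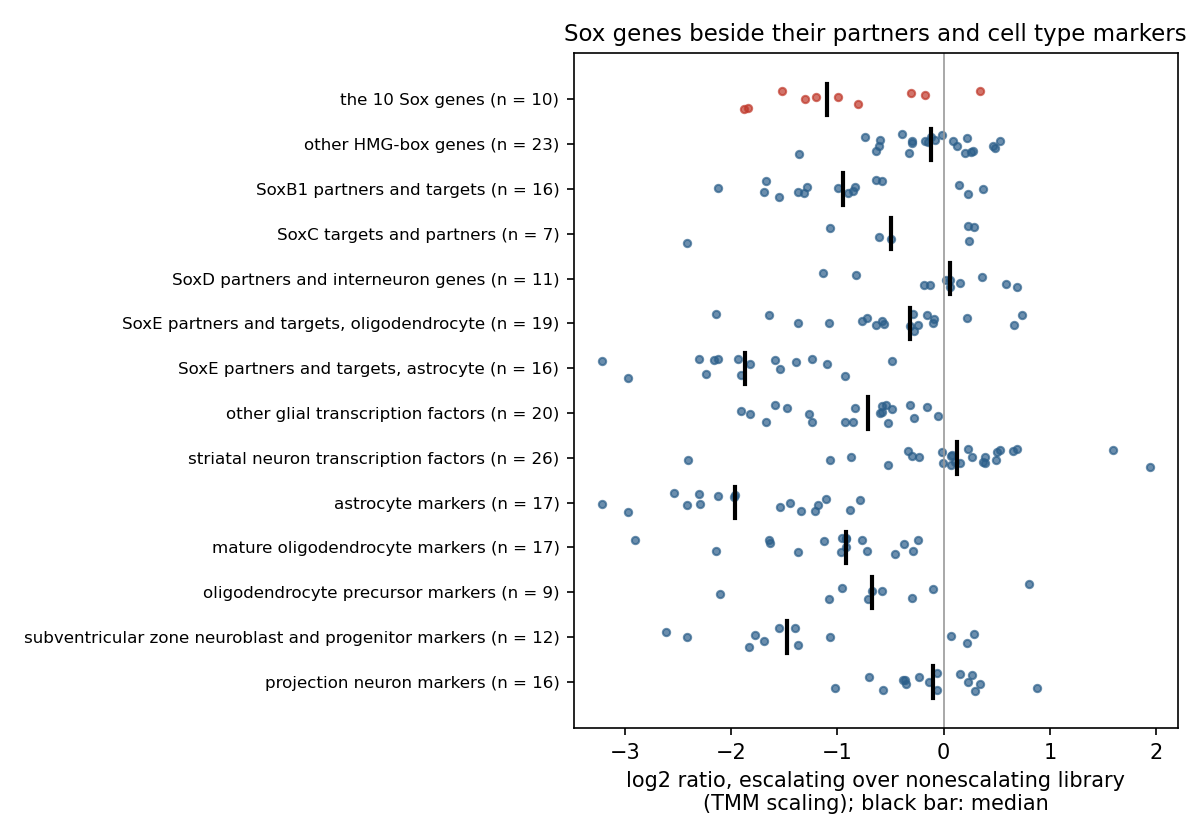
Log2 ratio of escalating over nonescalating (TMM scaling) for each measured gene of the 10 Sox genes (red) and of 13 comparison lists (blue), with the list median as a black bar and the number of genes in brackets. The Sox median of -1.10 lies between that of astrocyte markers (-1.97) and that of projection neuron markers (-0.10).

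Other transcription factors gave the following counts. Of 23 measured HMG-box genes outside the Sox family, 3 were called lower and 0 higher (median -0.12), beside 17.1% and 9.36% of all measured genes. Those lower, named after their values were seen, were Hmgb2, Tcf7l2 and Tox3, at ratios of 0.382 (0.204 to 0.691), 0.644 (0.539 to 0.769) and 0.654 (0.497 to 0.861). The most abundant of them were Cic, a repressor downstream of growth factor signalling, Bbx and the chromatin remodelling subunit Pbrm1, at ratios of 0.761 (0.712 to 0.813), 1.09 (1.003 to 1.18) and 0.886 (0.808 to 0.971). Of 20 other glial transcription factors measured, 10 were lower and 0 higher (median -0.72), with Zbtb20 at 0.695 (0.643 to 0.752), Nfia as above and Nfix at 0.525 (0.469 to 0.587). Of 26 transcription factors of striatal and cortical neurons, 3 were lower (Zfp521, Ikzf1 and Nr4a1, at 0.544, 0.187 and 0.475) and 4 higher (among them Dlx5, Tbr1 and Neurod6, at 1.61, 3.04 and 3.94), the genes in brackets being named after their values were seen (median 0.13). The most abundant, Foxp1, Meis2 and Bcl11b, were not called.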

How the data were processed

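The authors deposited raw read counts per gene symbol, 1 library per group. Per the submitters' processing notes, STAR 2.0.0e, HTSeq and mm10 were used; the strand setting and annotation of the counting are not stated there. Reads given to no gene, and a line named unknown with 0 reads, stayed out of library sizes. TMM factors (edgeR 4.0.16, R 4.3.3) were 1.13 (escalating) and 0.882 (nonescalating). Log2 ratios used a pseudocount of 0.5, and ratios in the text are of CPM without it. Ratios against another gene or marker list have a 95% log-normal counting interval. With 1 library per group neither edgeR's nor DESeq2's test was run. The interval and call code was tested on simulated data.

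The 10 genes and the comparison lists were chosen with earlier results of these data known. The text names the 10 genes, all further Sox genes listed, genes that overlap them, the 3 most abundant measured genes of the lists described and fixed direct targets of Sox9 and Sox10; for some lists only counts are given, and some genes under this rule are not reported here. Positions, exon lengths and transcript sequences came from GENCODE M21 (mm10), which held 92.7% of measured genes by symbol. Python 3.11.15, scipy 1.17.1 and matplotlib 3.10.9 were used. Alternatives were 5 scalings (among them DESeq2 1.42.0 size factors), count minimum, pseudocount, fold threshold and interval width; marker lists without abundant genes were added after seeing the data.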

Additional observations from a re-analysis of the deposited data

How the results depend on the processing

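The count of 7 Sox genes called lower ranged from 5 to 7 over 10 alternative settings: it was 6 with total-read scaling, where Sox2 was not called, and 5 with a 2-fold threshold, which Sox1 and Sox2 missed. It was 7 in the other 8, among them DESeq2 size factors, upper quartile scaling, minima of 10 counts or none, a pseudocount of 5 and a 99% interval. Genes called higher were 0, and 1 (Sox8) with total-read scaling. The median log2 ratio of the 10 genes was -1.10, and -0.74 with total-read scaling. The log2 ratio of their summed counts was -0.65; it was -0.28 with total-read scaling, -0.51 with total reads less AK140265 and Rn45s (symbols that hold many reads), and -0.82 when scaled to neuronal marker reads. Context list genes called either way numbered 115, and 76 with a 2-fold threshold. No called Sox gene changed sign in any setting. Ratios of Sox to marker reads moved past their counting interval without the abundant markers for 11 of 12 pairs, the exception being Sox4, and 0 crossed 1. No paired analysis was possible because each group has 1 library, and for the same reason no library could be left out. Depth limits Sox4 and Sox21 most, with 23 and 43 counts in the escalating library.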
